A study of Mus musculus with 14 samples.

Results

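The genes described here are 52 of the 24064 genes in the oocyte count table. They were taken by name as the genes of the kinetochore, the spindle assembly checkpoint, the chromosomal passenger complex, the Aurora and Polo kinases, and the anaphase promoting complex with its activators, its E2 enzymes, securin and separase. Their RNA was measured by single-cell RNA-seq of ovulated mouse oocytes, in 4 wt/wt, 1 f/f and 5 mutant oocytes. These numbers take libraries that share an oocyte name as 1 oocyte, although their descriptions number them as separate oocytes. The wt/wt oocytes (wt1, wt3, wt4 and wt5) were of the C57BL/6J strain with an intact Kdm1a gene, which encodes the histone demethylase KDM1A (LSD1). The f/f oocyte (C3) was from a mixed B6;129 background and carried a floxed first exon of Kdm1a on both alleles without Cre. The mutants (oocytes D1 to D4 and D7) were of the same mixed background, with both alleles floxed and with a Cre transgene driven by the Zp3 promoter, which is active in growing oocytes. The labels do not give the age of the females, and the methods of the study state superovulation and an age of some weeks for the floxed females from which embryos were taken. Several oocytes may come from 1 female. The wt/wt and f/f oocytes together were the 5 controls. Strain differs between wt/wt and all other oocytes, and so does the form of the library names. Strain, genotype and any difference that goes with the library names thus cannot be told apart in a comparison with wt/wt oocytes. The f/f genotype rests on 1 oocyte.

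An ovulated mouse oocyte is arrested at metaphase of the second meiotic division. Kinetochores are the protein assemblies on centromeres that bind spindle microtubules, and unattached kinetochores signal through the checkpoint proteins to hold back CDC20. CDC20 activates the anaphase promoting complex (APC/C), a ubiquitin ligase that marks securin and cyclin B for destruction and so releases separase, the protease that opens cohesin. The oocyte stores RNA for these proteins during growth, and part of it is translated only during maturation, when its poly(A) tail is lengthened.

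Total counts were 1375187 to 6928548 per oocyte, the highest in C3 and D4. C3, D3, D4 and D7 had 2 libraries each, and D3 and D7 had 3245395 and 2135951 counts. Values are given below in CPM, counts scaled to a common library size after adjustment by the TMM factor. That factor was 1.295 to 1.366 in the wt/wt oocytes, 0.651 in C3 and 0.779 to 0.952 in the mutants. At these depths 3 counts stood for 0.456 to 1.83 CPM. Kdm1a, the gene deleted in the mutants, had 27 to 85 counts in the wt/wt oocytes, 669 in C3 and 0 to 10 in the mutants. Of 18 oocyte markers 17 were counted in every oocyte, and their summed level was 28570 to 89980 CPM in the controls and 82860 to 159400 CPM in the mutants. Of 16 cumulus and granulosa cell markers 9, Foxl2, Fshr, Amh and Lhcgr among them, were at 0 in every oocyte. The summed level of that list was 20.6 to 79.6 CPM in the controls and 85.9 to 156.3 CPM in the mutants, and its most counted gene was Cyp19a1, with 19 to 740 counts, in every oocyte but wt5, where Nr5a2 had 21. The part of either list in the differences below was not tested. D4 had the highest level of 30.8% of all genes tested among the 5 mutants, and C3 of 28.6% among the 5 controls. A level here is of RNA with a poly(A) tail, and p-values measure only the spread between these oocytes.

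Of the 52 genes 50 passed the filter on total counts and were tested. All 9198 genes that passed were compared between mutant and control oocytes by the quasi-likelihood test of edgeR, with p-values adjusted after Benjamini and Hochberg. A call needed an adjusted p below 0.05 and a log2 fold change of 1 or more in size. Log2 fold changes are of mutants over controls and are given with their standard error (SE). The test called 15 of the 50 genes (30%), beside 25.9% of all genes tested. Of these 11 were higher in mutant oocytes, where 14.7% of all genes were, and 4 were lower, where 11.2% of all genes were. The control and mutant oocytes did not overlap for 7 of the 50, beside 16.2% of all genes tested. Over the 50 genes log2 fold changes had a median of 0.25, and over all genes one of 0.17. The shares called and not overlapping were thus near those of all genes. Of the calls in the list 73.3% were higher, beside 56.8% of the calls over all genes, a difference that was not tested. Scaling by library totals alone, which moved the median of all genes from 0.17 to -0.23, gave 5 genes higher and 6 lower in place of 11 and 4. It called 28.6% of all genes, with 36.6% of those higher in place of 56.8%. Removing trends with GC content and transcript length gave 7 higher and 5 lower, beside 25.7% of all genes called, 45.5% of them higher.

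**Figure D1:**
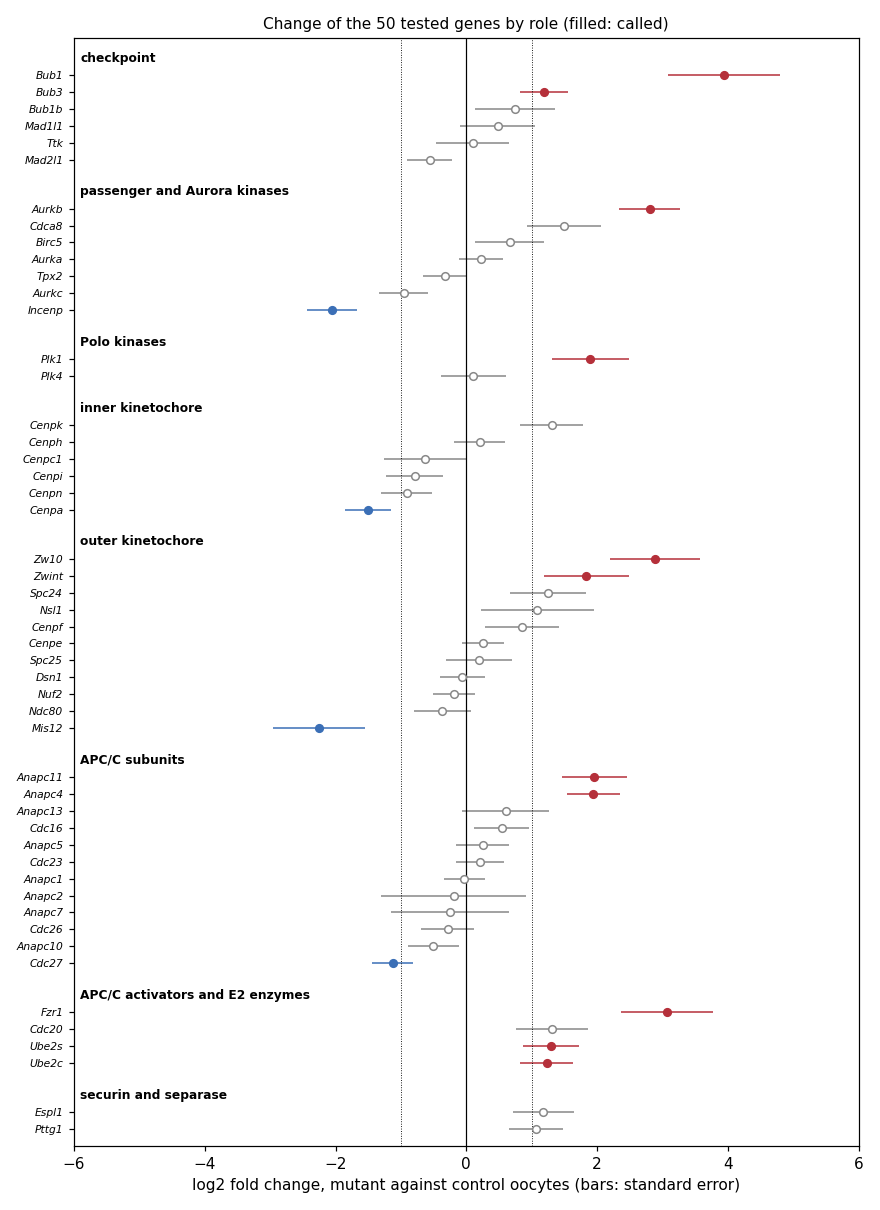
Log2 fold change in mutants relative to controls (horizontal axis) for the 50 tested genes, grouped by role. Bars are standard errors, filled points are called genes (red higher, blue lower), dotted lines mark log2 fold changes of -1 and 1. The called genes run from -2.25 for Mis12 to 3.94 for Bub1.

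Pttg1 and Bub1b RNA took a large part of the list's counts, more so in C3 and the mutants. The 52 genes together took 1.60% to 1.865% of all counts in the wt/wt oocytes, and 0.896% to 1.03% without Pttg1 and Bub1b. In C3 they took 1.804%, and 0.480% without both, and in the mutants 1.69% to 2.56%, and 0.596% to 0.700% without both. Per kilobase of transcript, counted up to the 3 kb that the cDNA covers, the highest mean levels in wt/wt oocytes were 5118 CPM for Pttg1 (securin), 570 for Aurkc, 464 for Cenpn, 410 for Bub1b and 284 for Mad2l1. In mutant oocytes they were 14200 CPM per kilobase for Pttg1, 1405 for Bub1b, 392 for Cdca8, 387 for Ube2s and 268 for Aurkc. At the other end, Casc5, the scaffold KNL1 of the outer kinetochore, was at 0 in every oocyte but D4, and Cenpt had at most 3.02 CPM in any oocyte. These were the 2 genes that did not pass the filter.

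Genes of the chromosomal passenger complex moved in both directions. In this complex an Aurora kinase is held at the centromere by INCENP, survivin (Birc5) and borealin (Cdca8). Aurkb, the Aurora kinase that serves this complex in somatic cells, was 6.98-fold higher in mutant oocytes, and Incenp, the scaffold that binds and activates the kinase, was 4.16-fold lower. Aurkb (chr11:69045647-69051664, plus strand) had 13.8, 8.20, 16.4 and 4.49 CPM in the wt/wt oocytes, 5.11 in C3 (f/f) and 44.4, 70.1, 109, 68.3 and 41.4 in the mutants. Every mutant oocyte lay above every control, and the f/f oocyte lay with the wt/wt oocytes. Its log2 fold change was 2.80 (SE 0.46, adjusted p = 0.000893). Incenp (chr19:9872296-9899551, minus strand) had 80.7, 100.1, 71.6 and 69.5 CPM in the wt/wt oocytes, 29.97 in C3 (f/f) and 16.5, 20.1, 15.0, 13.2 and 19.9 in the mutants. The log2 fold change was -2.06 (SE 0.38, adjusted p = 0.00172), and every mutant lay below every control. C3 was the lowest control for Incenp, below each wt/wt oocyte and above each mutant.

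Aurkc (chr7:6995300-7003091, plus strand), the germ cell paralog that replaces Aurora B in much of female meiosis, had 1037, 662, 609 and 884 CPM in the wt/wt oocytes, 461 in C3 (f/f) and 321, 487, 468, 149 and 453 in the mutants. Every mutant oocyte lay below every wt/wt oocyte, but C3 lay within the mutant range. Against the controls its log2 fold change was -0.96 (SE 0.38, adjusted p = 0.0678), and Aurkc was not called. Against the wt/wt oocytes alone it was -1.07 (SE 0.36, adjusted p = 0.0333), a call, and with all controls it was also called under library totals (-1.49, adjusted p = 0.0106) and with the GC and length trends removed (-1.36, adjusted p = 0.022). Within each oocyte the log2 ratio of Aurkc to Aurkb counts, which no scaling between oocytes moves, was 6.12, 6.19, 5.15 and 7.36 in the wt/wt oocytes, 6.38 in C3 and 2.82, 2.78, 2.10, 1.12 and 3.42 in the mutants. The ratio fell by 3.79, from 6.24 ± 0.79 (SD, n = 5) in the controls to 2.45 ± 0.88 (SD, n = 5) in the mutants. The 2 groups did not overlap and the two-sided exact permutation test over all groupings of the 10 oocytes gave its smallest possible p, 0.00794 (adjusted over the 4 ratios, 0.0317). Aurkc RNA was still more abundant than Aurkb RNA in every mutant oocyte. Aurora B and C are close paralogs, and reads that fit both genes equally well were not counted, since only unique best alignments were kept.

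Both Aurora B and Aurora C transcripts hold a cytoplasmic polyadenylation element near their 3' end, and their ends are shown here with those of 4 other stored transcripts because the cDNA was primed on the poly(A) tail. The element, TTTTAT or TTTTAAT on the transcript's strand, lies in the 3' UTR and is bound by the CPEB protein, which controls tail length during oocyte maturation. Each line gives 30 bases 5' to 3' from GENCODE transcripts of GRCm38, with each element in capitals, 2 overlapping ones in Cdc20.
Aurkb chr11:69051622-69051651: acaacaTTTTATaataaagtcttaaatgtt
Aurkc chr7:7003042-7003071: tttctcTTTTATgaagtgatgttaattaaa
Aurka chr2:172356231-172356260: gctattTTTTATgttggagttctgtcatgt
Bub1b chr2:118641559-118641588: tgtgtaTTTTATaataaaatagtttttgtt
Cdc20 chr4:118432912-118432941: tTTTTATTTTATtttttctaataaagttcg
Ndc80 chr17:71496158-71496187: atagtaTTTTATccccaaattatgataata
Within the last 100 bases of the annotated 3' UTR, 10 of the 52 genes (19.2%) held an element, beside 22.2% of 8752 tested genes with a 3' UTR of at least 30 bases. Of the 11 genes called higher it was found in 1, Aurkb, and of the 4 called lower in 0. An annotated end need not be the end that the oocyte uses, and a match of these letters is a description only.

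In the reported edgeR fit against all controls the other passenger genes and Aurora A did not pass the test. Birc5 (chr11:117849251-117855743, plus strand) had 95.6, 93.2, 88.7 and 254 CPM in the wt/wt oocytes, 49.3 in C3 (f/f) and 152, 130.4, 79.1, 469 and 85.8 in the mutants. wt5 and D4 stood apart within their groups, and without them the ranges of the groups overlapped. Its log2 fold change was 0.66 (SE 0.52, adjusted p = 0.367), and it was -0.046 without D4. Aurka (chr2:172356190-172370535, minus strand), the spindle pole kinase, had 68.5, 59.99, 34.8 and 85.7 CPM in the wt/wt oocytes, 60.4 in C3 (f/f) and 82.3, 93.2, 58.4, 62.2 and 64.8 in the mutants. The groups overlapped and the log2 fold change was 0.22 (SE 0.34, adjusted p = 0.658), with a minus sign under library totals (-0.26) or after removal of the GC and length trends (-0.20). Cdca8 had 1.496 (SE 0.57, adjusted p = 0.0624) on the log2 scale, which was not a call, with 66.0 CPM in wt5 and 105.7 in D4, the lowest of their groups. With all controls it was called by DESeq2, by limma voom, with no filter, with the filterByExpr filter of edgeR, with counts thinned to equal depth and without D4. Against the wt/wt oocytes alone Cdca8 had 1.81 (SE 0.61, adjusted p = 0.0321), a call. Tpx2, which activates Aurora A on the spindle, had -0.33 (SE 0.34, adjusted p = 0.496).

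**Figure D2:**
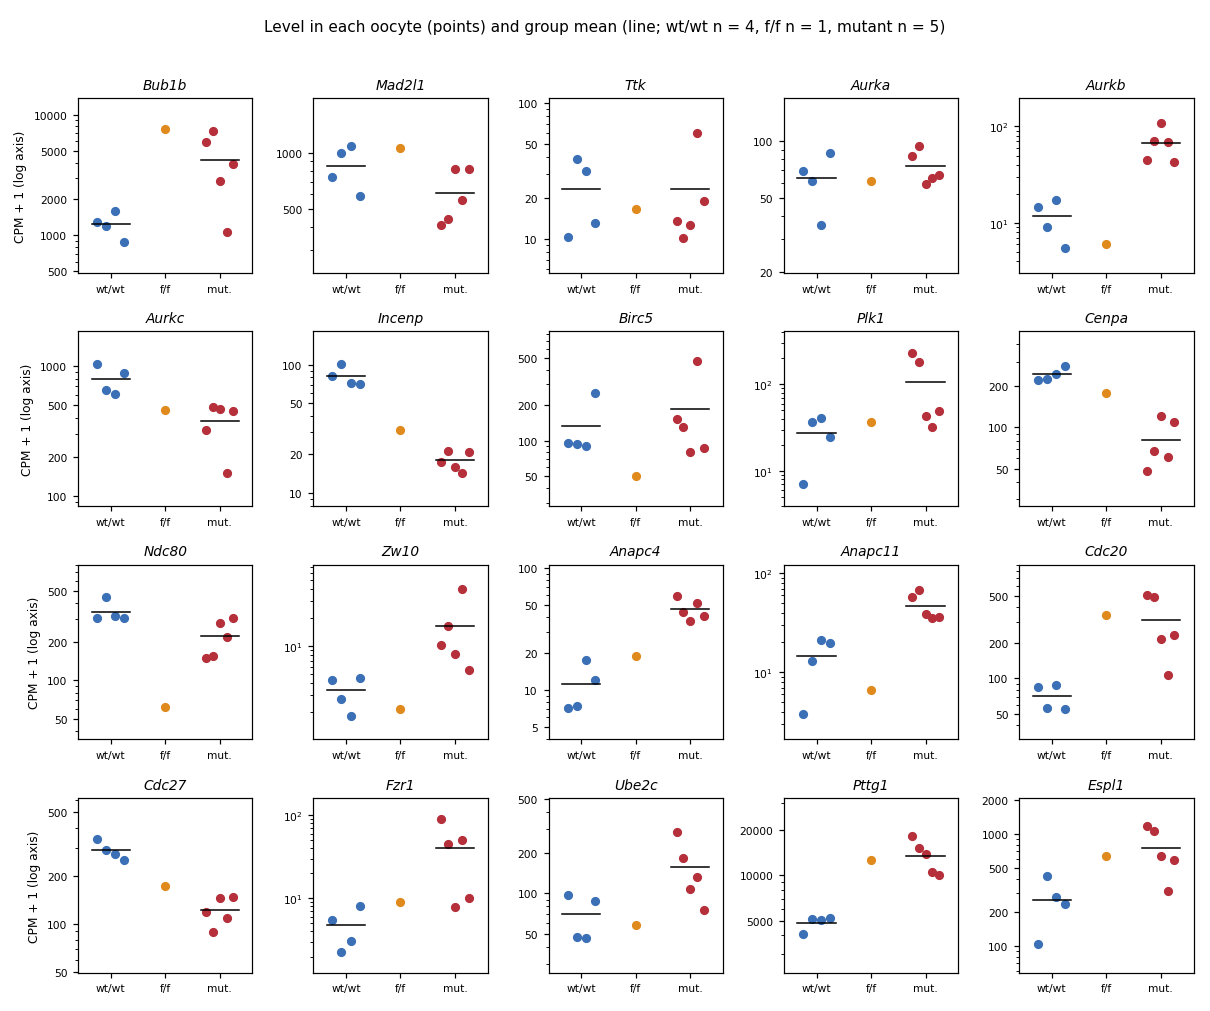
CPM plus 1 (vertical, log axis) of 20 genes in each oocyte, with 4 wt/wt (blue), 1 f/f (orange) and 5 mutant (red) oocytes as points, and lines at the means of the wt/wt and mutant groups. All mutant points lie above all control points for Aurkb, Anapc4, Anapc11 and Zw10, and below them for Incenp, Cenpa and Cdc27.

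Among the 6 checkpoint genes 2 rose and 4 did not pass the test. Bub1, the kinase that marks centromeres for shugoshin and recruits other checkpoint proteins, had 1.23 to 8.52 CPM in the controls and 4.99 to 182.4 in the mutants. D7 lay within the range of the controls. Its log2 fold change was 3.94 (SE 0.85, adjusted p = 0.00427), and 2.74 (adjusted p = 0.0154) without D4, the highest mutant. Bub3, the adaptor that brings BUB1 and BUBR1 to kinetochores, rose by 1.19 (SE 0.37, adjusted p = 0.0266), and was not called under library totals (0.69, adjusted p = 0.226) or without wt1, wt3, wt4 or D2. Mad1l1, which carries MAD2 to the kinetochore, had 0.48 (SE 0.57, adjusted p = 0.562).

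Bub1b (chr2:118598211-118641591, plus strand) encodes BUBR1, a part of the complex that inhibits CDC20. It had 1273, 1191, 1585 and 872 CPM in the wt/wt oocytes, 7670 in C3 (f/f) and 5940, 7380, 2810, 1061 and 3889 in the mutants. The f/f oocyte was the highest of all, 4 mutants lay above every wt/wt oocyte, and D4 lay within the wt/wt range. Its log2 fold change was 0.74 (SE 0.61, adjusted p = 0.386) against all controls and 1.83 (SE 0.46, adjusted p = 0.00774) against the wt/wt oocytes alone. Against the f/f oocyte alone it was -0.83 (adjusted p = 0.569). With all controls limma voom called Bub1b (1.59, adjusted p = 0.00524). Mad2l1 (chr6:66535390-66547220, plus strand), which encodes MAD2, the inhibitor that binds CDC20, had 743, 993, 1091 and 587 CPM in the wt/wt oocytes, 1064 in C3 (f/f) and 409, 442, 813, 555 and 817 in the mutants. D1, D2 and D4 lay below every control, and D3 and D7 within their range. A log2 fold change of -0.56 (SE 0.34, adjusted p = 0.23) was fitted. Ttk (chr9:83834689-83872389, plus strand), the kinase MPS1 that starts checkpoint signalling, had 9.40, 37.5, 30.7 and 12.1 CPM in the wt/wt oocytes, 15.8 in C3 (f/f) and 12.6, 9.14, 11.8, 59.6 and 17.95 in the mutants. Its log2 fold change of 0.10 (SE 0.56, adjusted p = 0.916) rested on D4 and was -0.70 without it.

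Of the Polo kinases Plk1 rose and Plk4 did not pass the test. Plk1 (chr7:122159439-122169873, plus strand), which acts at kinetochores, spindle poles and the APC/C, had 6.08, 35.4, 39.7 and 23.8 CPM in the wt/wt oocytes, 36.2 in C3 (f/f) and 227, 182, 42.4, 31.0 and 48.4 in the mutants. D1 and D2 lay far above every control, D3 and D7 just above the highest, and D4 within the range of the controls. Plk1 had a fitted change of 1.90 (SE 0.59, adjusted p = 0.0278) in log2. It was not called under library totals, after removal of the GC and length trends (1.05, adjusted p = 0.137), or without wt1, D1 or D2. Plk1 shares 156 exon bases with a gene model on the opposite strand. Plk4, the kinase of centriole duplication, had 0.11 (SE 0.50, adjusted p = 0.891).

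At the inner kinetochore Cenpa fell, and the reported edgeR fit against all controls called no other gene. Cenpa (chr5:30666777-30674830, plus strand) encodes the histone H3 variant that marks the centromere. It had 222, 225, 243 and 276 CPM in the wt/wt oocytes, 177 in C3 (f/f) and 47.2, 66.4, 120.4, 59.5 and 109 in the mutants. Every mutant lay below every control, and the log2 fold change was -1.51 (SE 0.35, adjusted p = 0.00611), or 2.84-fold lower. Of the other 5 tested genes, which encode proteins that bridge CENP-A chromatin to the outer kinetochore, Cenpk had 1.31 (SE 0.48, adjusted p = 0.054) and Cenph 0.21 (SE 0.39, adjusted p = 0.732). Cenpn, which reads the CENP-A nucleosome, had -0.91 (SE 0.39, adjusted p = 0.0914), and -1.08 (SE 0.35, adjusted p = 0.0259) against the wt/wt oocytes alone. With all controls Cenpk was called by DESeq2, with no filter and with every library as its own sample, and Cenpn by limma voom, under library totals and with the GC and length trends removed. Cenpi had -0.79 (SE 0.44, adjusted p = 0.189) and Cenpc1 -0.63 (SE 0.64, adjusted p = 0.492).

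At the outer kinetochore 2 of the 11 tested genes rose and 1 fell. Zw10 (chr9:49055613-49078775, plus strand), which brings dynein to kinetochores, had 3.32, 1.73, 0.818 and 3.59 CPM in the wt/wt oocytes, 1.11 in C3 (f/f) and 9.32, 15.2, 7.12, 39.9 and 4.49 in the mutants. In counts this was 2 to 8 in the controls and 9 to 262 in the mutants. The groups did not overlap, and the log2 fold change was 2.89 (SE 0.69, adjusted p = 0.00731), or 2.11 (adjusted p = 0.0306) without D4. Zwint, which links ZW10 to KNL1, had 1.84 (SE 0.65, adjusted p = 0.0468), and kept its call in 7 of 23 alternatives. An adjusted p alone, which cannot lose a call, was among these 7. D7 had 2.99 CPM, within the range of the controls, and D4 54.2, and without D4 the log2 fold change was 1.11. Mis12, of the complex that joins the inner and outer kinetochore, had 5.11 to 19.6 CPM in the controls and 0 to 5.48 in the mutants, and -2.25 (SE 0.70, adjusted p = 0.027) on the log2 scale. Its call was lost without wt1, wt3, wt4, D1 or D3, and it shares 231 exon bases with Derl2 on the opposite strand.

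Ndc80 (chr17:71496100-71526857, minus strand) encodes the main microtubule receptor of the kinetochore. It had 303, 445, 317 and 304 CPM in the wt/wt oocytes, 61.1 in C3 (f/f) and 149.7, 154, 279.9, 218 and 308 in the mutants. C3 was the lowest of all oocytes. For Ndc80 the log2 fold change was -0.37 (SE 0.43, adjusted p = 0.56), and 1.89 (adjusted p = 0.214) against C3 alone. Nuf2 and Spc25, of the same complex as Ndc80, had log2 fold changes of -0.18 and 0.20, and Spc24 had 1.25 (SE 0.58, adjusted p = 0.118). The motor gene Cenpe had 0.25, Cenpf 0.85, and the MIS12 complex genes Dsn1 and Nsl1 -0.06 and 1.09. Of these 7 genes edgeR called none, and limma voom called Spc24.

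**Figure D3:**
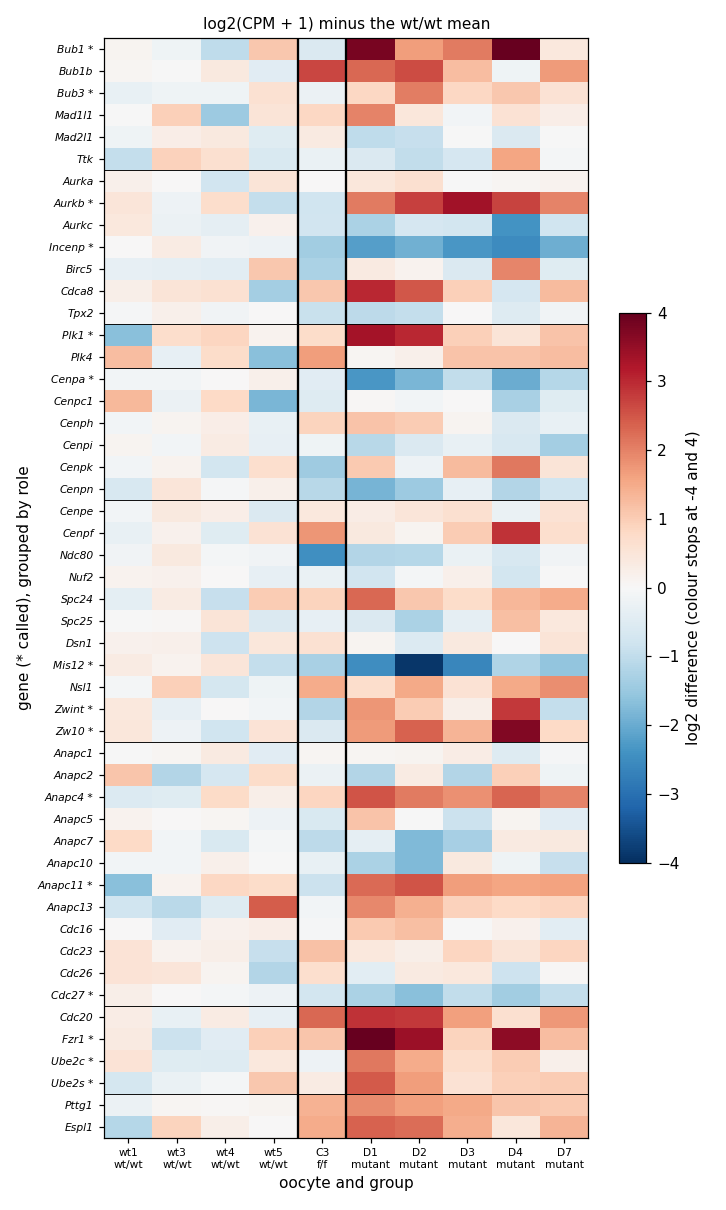
Colour gives log2(CPM + 1) minus the mean of the 4 wt/wt oocytes for the 50 tested genes (vertical axis, grouped by role, called genes starred) in each of the 10 oocytes (horizontal axis). The f/f oocyte C3 lies above every wt/wt oocyte for Bub1b, Cdc20, Pttg1 and Espl1 and within their range for Aurkb.

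Of the 12 APC/C subunits tested 2 rose, 1 fell and 9 did not pass. Anapc11 (chr11:120598421-120608198, plus strand), the catalytic RING subunit, had 2.76, 12.1, 20.04 and 18.8 CPM in the wt/wt oocytes, 5.55 in C3 (f/f) and 56.5, 67.0, 37.4, 34.4 and 35.4 in the mutants. Every mutant lay above every control, and the log2 fold change was 1.95 (SE 0.50, adjusted p = 0.0103). It was not called under library totals. Anapc4 (chr5:52834012-52867797, plus strand), a subunit of the platform, had 6.08, 6.47, 16.8 and 11.2 CPM in the wt/wt oocytes, 17.98 in C3 (f/f) and 58.7, 42.6, 36.0, 50.8 and 39.9 in the mutants. The mutants again lay above all controls, with 1.94 (SE 0.41, adjusted p = 0.00379) on the log2 scale. Cdc27 (chr11:104502745-104550620, minus strand), which encodes APC3, the arm that docks the activators, had 340.4, 290.4, 272 and 251 CPM in the wt/wt oocytes, 171 in C3 (f/f) and 118, 88.3, 145, 108 and 147 in the mutants. Every mutant lay below every control, and the log2 fold change was -1.13 (SE 0.32, adjusted p = 0.0172). C3 was the lowest control. After removal of the GC and length trends Cdc27 had -0.89 (adjusted p = 0.0444), short of the fold that a call needed.

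The 9 other subunits had log2 fold changes from -0.50 (Anapc10) to 0.60 (Anapc13, called by limma voom). Anapc1, the largest scaffold subunit, had -0.03 (SE 0.31, adjusted p = 0.954), with 107 to 189 CPM in the controls and 102 to 179 in the mutants. Cdc16 and Cdc23, which with Cdc27 form the arm of repeat proteins, had 0.54 and 0.21. Cdc23 shares 1271 exon bases with Kif20a on the opposite strand. How reads from these bases were counted cannot be told, since the strand setting of the counting is not given in the sources used here. Anapc2, the cullin partner of Anapc11, had at most 3.87 CPM in any oocyte, and -0.19 (SE 1.11, adjusted p = 0.916) on the log2 scale.

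Of the 4 genes for activators and E2 enzymes 3 rose. Fzr1 (chr10:81366222-81378516, minus strand) encodes CDH1, the activator that keeps immature oocytes in prophase. It had 4.42, 1.30, 2.05 and 7.18 CPM in the wt/wt oocytes, 7.99 in C3 (f/f) and 88.3, 43.9, 6.77, 49.1 and 8.98 in the mutants. D1, D2 and D4 lay far above the controls, whereas D3 lay within their range and D7 just above it. Fzr1 had a fitted change of 3.07 (SE 0.70, adjusted p = 0.00586) in log2. Ube2c (chr2:164769898-164778822, plus strand), the E2 enzyme that starts ubiquitin chains on APC/C substrates, had 96.2, 46.6, 45.4 and 87.0 CPM in the wt/wt oocytes, 56.8 in C3 (f/f) and 283, 183, 107, 131 and 74.8 in the mutants. D7 lay within the range of the controls, and the log2 fold change was 1.23 (SE 0.40, adjusted p = 0.0334). Ube2s, which lengthens the chains, had 103 to 358 CPM in the controls, 253.5 to 929.6 in the mutants and 1.30 (SE 0.43, adjusted p = 0.0353) on the log2 scale. Both E2 calls were lost under library totals and after removal of the GC and length trends (0.58 and 0.33), and without wt3, wt4, D1 or D2. Ube2c shares 592 exon bases with Tnnc2 and Ube2s 183 with Rpl28, both on opposite strands.

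Cdc20 (chr4:118432901-118437352, minus strand), the activator that triggers anaphase, had 84.0, 54.8, 86.3 and 53.8 CPM in the wt/wt oocytes, 340.3 in C3 (f/f) and 507, 487, 213, 107 and 229 in the mutants. Every mutant lay above every wt/wt oocyte, and C3 lay within the mutant range. Cdc20 had a fitted change of 1.31 (SE 0.55, adjusted p = 0.0861) in log2 against all controls, not a call, and 2.20 (SE 0.47, adjusted p = 0.00263) against the wt/wt oocytes alone. With all controls it was called by DESeq2 (1.36, adjusted p = 0.0493), by limma voom (1.99, adjusted p = 0.00109) and with no filter (1.28, adjusted p = 0.0454), and it had 0.56 (adjusted p = 0.445) with the GC and length trends removed. The log2 ratio of Mad2l1 to Cdc20 was 3.13, 4.16, 3.65 and 3.43 in the wt/wt oocytes, 1.64 in C3 and -0.31, -0.14, 1.93, 2.38 and 1.83 in the mutants. C3 lay within the range of the mutants, and each wt/wt oocyte above all of them. The ratio fell by 2.06 from the controls to the mutants (exact permutation test, p = 0.0317, adjusted 0.0635), and by 2.45 without C3 (adjusted p = 0.0317). The log2 ratio of Cdc20 to Fzr1 was 4.33 ± 1.01 (SD, n = 5) in the controls and 3.28 ± 1.53 (SD, n = 5) in the mutants. The difference of -1.05 did not pass the test (exact permutation test, p = 0.238, adjusted 0.317).

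Securin and separase were both higher in every or nearly every mutant than in the wt/wt oocytes, and C3 lay within the range of the mutants. Pttg1 (chr11:43420250-43426251, minus strand), securin, had 4075, 5096, 5043 and 5196 CPM in the wt/wt oocytes, 12690 in C3 (f/f) and 18020, 15180, 13700, 10440 and 9961 in the mutants. Each mutant lay above each wt/wt oocyte. Against all controls the log2 fold change was 1.07 (SE 0.41, adjusted p = 0.0622) and was not called, and against the wt/wt oocytes alone it was 1.499 (SE 0.31, adjusted p = 0.00204). With all controls Pttg1 was called by DESeq2 (1.10, adjusted p = 0.0159), by limma voom (1.42, adjusted p = 0.000482), under upper-quartile scaling, with filterByExpr and with thinned counts, and it had 0.57 (adjusted p = 0.38) with the GC and length trends removed. Espl1 (chr15:102296266-102324357, plus strand), separase, had 102, 419.9, 271 and 233 CPM in the wt/wt oocytes, 641 in C3 (f/f) and 1171, 1067, 631, 312 and 590.3 in the mutants. D4 lay below wt3, and the other 4 mutants lay above every wt/wt oocyte. The log2 fold changes were 1.18 (SE 0.47, adjusted p = 0.0727) against all controls and 1.60 (SE 0.46, adjusted p = 0.0145) against wt/wt alone. DESeq2 (1.22, adjusted p = 0.0421) and limma voom (1.61, adjusted p = 0.0044) called Espl1 with all controls, as did the fits with filterByExpr and with thinned counts. The log2 ratio of Pttg1 to Espl1 was 4.38 ± 0.61 (SD, n = 5) in the controls and 4.27 ± 0.50 (SD, n = 5) in the mutants. The difference of -0.11 was smaller than the spread in either group (exact permutation test, p = 0.722, also after adjustment).

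**Figure D4:**
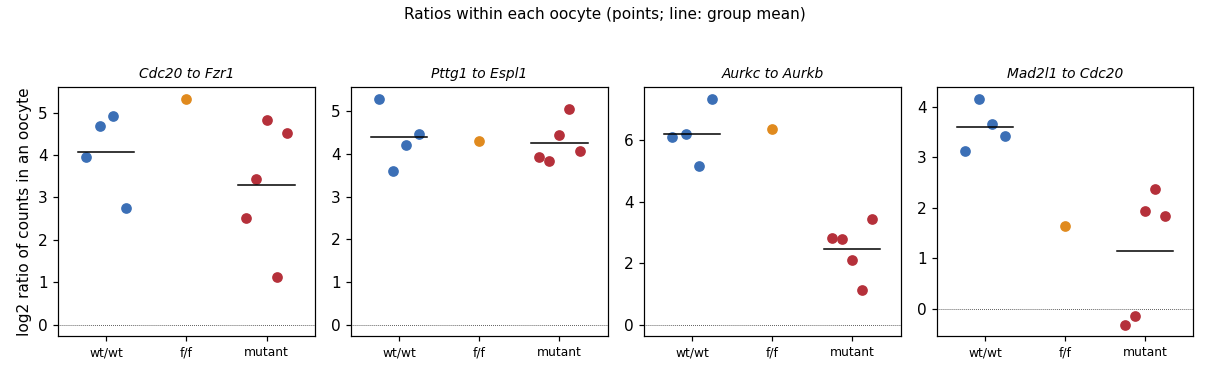
Log2 ratio of the counts of 2 genes within each oocyte (vertical axis) for 4 wt/wt (blue), 1 f/f (orange) and 5 mutant (red) oocytes, with lines at the means of the wt/wt and mutant groups. The ratio of Aurkc to Aurkb is 5.15 to 7.36 in the controls and 1.12 to 3.42 in the mutants.

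The cell cycle homology region is a motif through which cell cycle genes are repressed outside division. Promoters with a match to its letters are shown for the called genes. As examples of genes in which C3 lay above every wt/wt oocyte, they are also shown for Cdc20, Espl1, Bub1b and Cenpf. The motif was searched as TTTGAA on both strands, in windows of 300 bases that hold each RefSeq start near their end (GRCm38.p6), and 46 of the 52 genes had such a sequence. It was found in 17 of the 46 (37.0%), beside 20.2% of 27025 genes with a promoter sequence. CCAAT, the motif of the factor NF-Y, on both strands, was in 27 of the 46 (58.7%) and in 41.1% of those genes. Each line gives 30 bases on the gene's strand, 5' to 3', with TTTGAA or its reverse complement in capitals.
Cdc20 chr4:118437344-118437373: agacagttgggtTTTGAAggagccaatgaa
Espl1 chr15:102296254-102296283: tcactagggataTTTGAAaggaggtgctgg
Ube2c chr2:164769888-164769917: ggagggttgcaaTTCAAAcgcgggcggcgg
Bub3 chr7:131560315-131560344: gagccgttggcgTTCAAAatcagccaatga
Zw10 chr9:49055421-49055450: aacagactggcgTTTGAAaacctgtaggga
Plk1 chr7:122159453-122159482: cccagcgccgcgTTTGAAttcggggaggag
Bub1b chr2:118598231-118598260: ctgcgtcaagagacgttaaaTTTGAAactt
Cenpf chr1:189688067-189688096: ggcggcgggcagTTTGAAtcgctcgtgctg
Cenpa chr5:30666890-30666919: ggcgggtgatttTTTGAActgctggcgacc
Of the 10 genes called higher that had a promoter sequence 4 held TTTGAA, namely Bub3, Plk1, Zw10 and Ube2c, and of the 3 called lower 1 did, Cenpa. Aurkb and Incenp were among the 6 genes without a promoter sequence. A match of these letters is a description only, and whether it acts in oocytes was not tested.

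The position of the f/f oocyte differed from gene to gene. C3 fell inside the wt/wt range for 21 of the 50 tested genes and inside the mutant range for 27, with 11 in both ranges and 13 in neither. Over all genes tested the shares were 48.2% and 50.5%, beside 42% and 54% here. C3 was nearer to the wt/wt mean than to the mutant mean for 22 of the 50 (44%), beside 54.5% of all genes. It was for 12 of the 15 called genes, but their calls used C3 as a control. Against the wt/wt oocytes alone 21 genes were called, beside 31.5% of all genes, and 14 of the 15 were among them. The 7 further genes were Bub1b, Aurkc, Cdca8, Cenpn, Cdc20, Pttg1 and Espl1. Against C3 alone, with the spread taken from the mutants, edgeR called 0 of the 50 genes and 3 of 8811 in all, and 7 of the 50 had an unadjusted p under 0.05, beside 1670 of the 8811. One of the 2 libraries summed as C3 was matched to its label through a name with a letter and a digit exchanged. With the other library alone C3 had 8848 CPM of Bub1b, 389 of Cdc20, 14260 of Pttg1 and 719 of Espl1, each above every wt/wt oocyte. It then had 23.4 CPM of Incenp, still below the wt/wt and above the mutant range, and 1308 of Mad2l1, above every other oocyte. Its 537 CPM of Aurkc lay below the wt/wt range and just above the highest mutant (532), where the summed value lay within the mutant range.

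Of 46 further genes of the same pathways, listed by hand, 43 were tested, of which 11 rose and 3 fell in the mutants (32.6% called, beside 25.9% of all genes, 14.7% higher and 11.2% lower). Their median log2 fold change was 0.68. The count of calls, 14, was 8 without wt4 and 9 without D4, where 18.7% and 22.1% of all genes were called. The smallest p was that of Ndel1, a dynein regulator, with 2.21, 3.02, 1.64 and 4.04 CPM in the wt/wt oocytes, 5.33 in C3 (f/f) and 191, 36.6, 53.8, 319 and 20.4 in the mutants and 5.20 (SE 0.74, adjusted p = 0.000501) on the log2 scale. Cenpq, of the CENP-O complex of the inner kinetochore, had 0 to 4 counts in each control and 11 to 893 in each mutant, and 6.32 (SE 0.96, adjusted p = 0.000603) on the log2 scale. Cenpo, of the same complex, had 26.5, 34.1, 54.4 and 18.4 CPM in the wt/wt oocytes, 16.2 in C3 (f/f) and 8.23, 3.66, 3.92, 9.28 and 4.49 in the mutants, and -2.31 (SE 0.49, adjusted p = 0.00368) on the log2 scale. Ndel1 and Cenpq did not overlap between the groups in the one direction and Cenpo in the other. Cenpo shares 1380 exon bases with Adcy3 on the opposite strand. Of the inhibitors of the APC/C, chosen after their values were seen, Fbxo5 (EMI1) had 3.07 (SE 0.76, adjusted p = 0.00887) and Fbxo43 (EMI2), which holds the metaphase arrest, -0.79 (SE 0.34, adjusted p = 0.0963).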

How the data were processed

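The deposited values are raw counts per RefSeq gene for 14 oocyte libraries, which the authors made from single-end reads. Reads of low quality or rich in A and T were discarded, the rest were aligned to mm10 with TopHat2 2.0.6 and unique best alignments were counted with HTSeq (0.5.3p9 in the submitters' processing notes), without normalization. The filter on A and T can lower counts of AT-rich 3' ends. For each of C3, D3, D4 and D7 there are 2 libraries of that name, 1 of them with the suffix DNA, and these were summed as 1 oocyte. The descriptions number the 2 libraries of each name as separate oocytes. One of the 2 columns taken as C3 reads 3C in the table and was matched to the one label with its suffix, letter and digit. The Spearman correlation was 0.940 to 0.979 within these pairs and at most 0.908 with any other library. Within the pairs the counts of the listed genes still differed beyond counting error, with a chi-square per degree of freedom of 9.2 to 23.6. The labels do not settle whether a pair is 1 oocyte.

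The genes and lists were chosen with earlier results of these data known. Of the 15432 genes with any count, the 60% with the highest total were kept (9198). Counts were tested in R 4.3.3 with edgeR 4.0.16 (TMM, glmQLFit, glmQLFTest, genotype as the one term, Benjamini-Hochberg adjustment). The standard error of a log2 fold change is its size divided by the square root of the F statistic. The common biological coefficient of variation was 0.609. Ratios used counts plus 2 in each oocyte. Floors of 3 counts cover counting error only. Values per oocyte are given for 17 genes that stand for each role and for called genes whose groups did not overlap, and the 3 further pathway genes with the smallest p are named. Coordinates are of GRCm38 (mm10) from GENCODE M21 by gene name, for 98.5% of genes in the table.

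Alternatives were DESeq2 1.42.0, limma 3.58.1 voom with sample quality weights, other scalings and filters, an adjusted p alone, every library as its own sample with and without a replicate block, 1 library per oocyte, wt/wt or f/f oocytes alone as control, thinned counts, removal of GC and length trends (loess, span 0.5), a prior of 0.5 counts for the ratios and each oocyte left out. Libraries of embryos were not used here.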

Additional observations from a re-analysis of the deposited data

Results flagged for a closer look

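Of 48 sets of 5 oocytes examined for a single value far from the others, 20 genes and 4 ratios in controls and mutants, 6 held one, and chance gives about 1 in 20. Of these, 3 fell on the f/f oocyte C3 among the controls. C3 had 7670 CPM of Bub1b beside 872 to 1585 in the wt/wt oocytes, 340 CPM of Cdc20 beside 53.8 to 86.3, and 12690 CPM of Pttg1 beside 4075 to 5196. C3 is also the only control of the mixed B6;129 background, and the only one with library names of the mutants' form. Strain, allele, single oocyte and any difference that goes with the names thus cannot be told apart there. Among the mutants D4 had 59.6 CPM of Ttk beside 9.14 to 17.9 in the others, and 469 CPM of Birc5 beside 79.1 to 152. Among the controls wt5 had 254 CPM of Birc5 beside 49.3 to 95.6.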

How the results depend on the processing

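Of the 15 called genes, Bub1, Aurkb, Incenp, Cenpa and Anapc4 kept their call in each of 23 alternatives, those other than the f/f oocyte alone as control, and all 15 kept their direction in them. Of the 23, an adjusted p alone cannot lose a call, and wt/wt oocytes alone as control is the same fit as that without C3. Members called were 10 to 21 and other pathway genes called 8 to 18 with 1 oocyte left out, 10 of the members without wt1, wt3, wt4 or D1 and 21 without C3, where 17.6% to 19.3% and 31.5% of all genes were called. Other pathway genes called were 8 without wt4 and 9 without D4. The same oocyte numbers in the descriptions do not pair the libraries (correlations of 0.08, 0.10 and -0.09 for numbers 3, 4 and 5). With every library as its own sample and a replicate block, 5 members and 5 other pathway genes were called of 966 in all (10.5%). With the f/f oocyte alone as control, 0 members and 0 other pathway genes were called. DESeq2 called 20 members (30.5% of all genes), limma voom 22 (34.5%) and library totals 11 (28.6%), and the cause was not tested. The median of the members was -0.12 under library totals. Among the members recomputed under each alternative, log2 fold changes that reversed were those of Aurka (-0.26 under library totals, -0.20 with GC and length trends removed), Birc5 (-0.015 with the trends removed, -0.046 to 1.18 with 1 oocyte left out, the lowest without D4), and, against the f/f oocyte alone, Bub1b (-0.83), Cdc20 (-0.11) and Ndc80 (1.89). None of these was called in the reported edgeR fit. Ttk, also not called there, reversed with limma voom (-0.49), library totals (-0.33), the replicate block (-0.996), 1 library per oocyte (-0.0092) and trends removed (-0.085), and was -0.70 to 0.39 with 1 oocyte left out. The log2 ratio of Pttg1 to Espl1 was 0.032 with every library as its own sample and -0.31 to 0.12 with 1 oocyte left out. The log2 ratio of Mad2l1 to Cdc20 was -2.45 (adjusted exact permutation p = 0.0317) against the wt/wt oocytes alone, and -2.45 to -1.70 with 1 oocyte left out. The log2 ratio of Aurkc to Aurkb was -4.06 to -3.46 with 1 oocyte left out and its adjusted p stayed at 0.0317 or below in each alternative that allowed a test of it. With 5 oocytes a group and counts under 10 for genes such as Zw10, depth limits what can be said of the lowest genes.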
